A study of Mus musculus with 3 samples.

Results

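The genes described here are 10 of the surface enzymes and sugar carriers of the absorptive enterocyte: the hydrolases Alpi, Lct, Treh, Anpep, Dpp4, Enpep and Mep1a and the transporters Slc5a1, Slc2a2 and Slc2a5. They were taken by name, out of 18193 genes with a probe set of their own symbol in the platform annotation, and 15 of the 45101 probe sets of the array carry one of these symbols alone. RNA came from the mouse small intestine, from follicle-associated epithelium, the sheet of epithelial cells that covers the lymphoid follicles of Peyer's patches. It was hybridised to 3 arrays: 2 of RBP-J depleted epithelium, from C57BL/6 mice carrying Rbpj alleles flanked by loxP sites and a Cre recombinase driven by the Villin promoter, and 1 of wild type epithelium from C57BL/6 mice. Animals of both genotypes were untreated, and no age, intestinal segment or pooling is given in the sources used here. The Villin promoter is active in intestinal epithelium, so lymphocytes and stroma that come along with the sheet keep their Rbpj. The comparison asks how the digestive surface of this epithelium differs when RBP-J, the DNA-binding partner of Notch receptors, is depleted.

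The brush border is the carpet of microvilli on the enterocyte, where the last step of digestion takes place. Hydrolases anchored in its membrane split disaccharides, peptides and phosphate esters, and transporters beside them carry the sugars into the cell and out at its base. Most of these genes are switched on as crypt cells mature into enterocytes, under transcription factors of the HNF1, HNF4, CDX and GATA families, and follicle-associated epithelium is known for a lower activity of several of these enzymes than villus epithelium. Notch signalling through RBP-J holds progenitors to the absorptive fate against the secretory one. No villus sample is part of this comparison.

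Promoter windows of all 10 genes, from 250 bases before to 50 after the annotated start, were found among the RefSeq promoters of build GRCm38.p6 and searched on both strands for letters of factors that act on these genes or were depleted. The RBP-J letters TGGGAA stood in 1 of the 10 windows, that of Dpp4, against 25.6% of all 32851 windows. The HNF4 letters CAAAGTCCA stood in those of Alpi and Treh (0.475% of all windows), the GATA letters AGATAA in those of Lct and Dpp4 (11.2%), the CDX letters TTTATG in those of Lct and Mep1a (11.9%), and the HNF1 letters GTTAAT in 0 of the 10 (7.10%). A match is a description of the letters and not evidence of a bound site. 4 windows are shown, with every match in capitals and no match overlapping another: Alpi and its neighbour on chromosome 1 Akp3, another intestinal alkaline phosphatase, because both genes read higher in both depleted arrays, with the depleted arrays close to each other; Dpp4, because it holds the RBP-J letters, 183 bases before its start; and Lct, because the depleted arrays lay on opposite sides of wild type. Akp3 holds none of the letters searched. In Alpi the capitals begin 19 bases before the start, and in Lct the GATA letters begin 101 and 90 bases and the CDX letters 31 bases before it.
Alpi (chr1:87101557-87101856, minus strand): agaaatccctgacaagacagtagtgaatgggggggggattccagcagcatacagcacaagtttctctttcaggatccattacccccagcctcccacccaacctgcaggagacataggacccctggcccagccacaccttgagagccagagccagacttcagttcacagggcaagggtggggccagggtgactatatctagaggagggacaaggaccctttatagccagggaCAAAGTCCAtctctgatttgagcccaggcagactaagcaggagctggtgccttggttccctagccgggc
Akp3 (chr1:87124704-87125003, plus strand): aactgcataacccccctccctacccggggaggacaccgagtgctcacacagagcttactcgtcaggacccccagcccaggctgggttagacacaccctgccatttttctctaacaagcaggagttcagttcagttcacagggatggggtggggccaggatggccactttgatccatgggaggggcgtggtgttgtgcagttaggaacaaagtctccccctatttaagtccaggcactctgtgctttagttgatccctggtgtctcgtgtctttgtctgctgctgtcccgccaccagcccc
Dpp4 (chr2:62412182-62412481, minus strand): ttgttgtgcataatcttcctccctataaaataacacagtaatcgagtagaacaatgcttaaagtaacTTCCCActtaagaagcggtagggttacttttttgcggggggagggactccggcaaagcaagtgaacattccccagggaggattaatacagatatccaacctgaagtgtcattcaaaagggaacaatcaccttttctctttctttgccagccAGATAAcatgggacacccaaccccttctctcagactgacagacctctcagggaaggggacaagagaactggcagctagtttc
Lct (chr1:128328269-128328568, minus strand): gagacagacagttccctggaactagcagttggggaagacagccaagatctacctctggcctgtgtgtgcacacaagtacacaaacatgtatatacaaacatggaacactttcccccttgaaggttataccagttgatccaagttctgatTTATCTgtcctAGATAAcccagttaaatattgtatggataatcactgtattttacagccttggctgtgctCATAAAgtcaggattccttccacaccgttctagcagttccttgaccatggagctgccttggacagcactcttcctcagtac

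Values are linear intensities in multiples of the array's median. Differences are depleted minus wild type on the log2(value + 0.248) scale, on which folds of dim genes are understated. Whether the 2 depleted arrays stand for separate animals is not labelled. Their spread can therefore be technical, and the fit takes the single wild type array to vary as they do. The brightest of the Rbpj probe sets read 2.72 and 5.74 in the depleted arrays against 7.15 in wild type, and was not called. The other Rbpj probe sets read 4.14 and 4.92 against 5.37 and 2.30 and 4.21 against 3.79, so that in the last of these the second depleted array was above wild type. Where these probes lie relative to the deleted part was not analysed here. The Y-linked genes Eif2s3y and Kdm5d were near 0 in both depleted arrays and present in wild type, and Xist was the reverse, so genotype and sex cannot be told apart here. Bright genes as a whole read higher in the second depleted array: over the 3636 genes with a mean of at least 10, the first depleted array had a median difference of 0.03 and the second one of 0.32. All 10 hydrolases and transporters belong to those bright genes, and their differences are to be read against these medians.

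Among the hydrolases that do not cut proteins, Alpi stood furthest from wild type. Alpi encodes an intestinal alkaline phosphatase, a marker of mature enterocytes that also strips phosphate from bacterial lipopolysaccharide. It read 122 in each depleted array, against 80.1 in wild type. On the deposited scale the depleted arrays were thus 1.52 and 1.53 times the wild type array and nearly equal to each other. The log2 difference of 0.61 (SE 0.36, 95% interval -0.11 to 1.32, limma adjusted p = 0.9997) did not pass the test. When the arrays were scaled to the genes with a mean of at least 10, the log2 differences of Alpi were 0.56 and 0.29, no longer nearly equal. Treh, the enzyme that splits trehalose, read 23.9 and 23.2 in the depleted arrays against 19.0 in wild type. Both depleted values lay above wild type and within 0.05 of each other on the log2 scale (log2 difference 0.30, SE 0.44, limma adjusted p = 0.9997). Scaled to bright genes, the log2 differences of Treh were 0.28 and -0.04, on either side of wild type.

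Lct, the lactase that splits milk sugar, had no common direction in the depleted arrays. The depleted arrays read 49.2 and 30.7, against 39.1 in wild type. The wild type value lay between the depleted ones, which were 0.67 apart on the log2 scale, and the mean difference was -0.01 (SE 0.41, 95% interval -0.82 to 0.81, limma adjusted p = 0.9997). For Lct the first depleted array was the high one, whereas 8 of the 10 genes read higher in the second.

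The peptidases were measured by 8 probe sets. Mep1a, the alpha subunit of the metalloprotease meprin, had the largest mean difference of the 10 genes on the deposited scale. Its brighter probe set read 41.2 and 52.3 in the depleted arrays against 30.2 in wild type, and its other probe set 43.8 and 41.2 against 26.7. Both probe sets therefore had both depleted arrays above wild type, by mean factors of 1.55 and 1.59. The limma fit gave a log2 difference of 0.62 (SE 0.41, 95% interval -0.19 to 1.42, adjusted p = 0.9997) for the brighter one and of 0.66 (SE 0.42, adjusted p = 0.9999) for the other, fitted with every probe set as a row. Neither was called.

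Dpp4 cleaves dipeptides from the amino end of peptides and inactivates incretin hormones. Its brightest probe set, 1416697_at, read 49.3 and 58.1 in the depleted arrays against 40.8 in wild type (log2 difference 0.39, SE 0.40, limma adjusted p = 0.9997). Its 3 dimmer probe sets did not all go that way. The probe set 1459973_x_at read 7.68 and 7.41 against 6.93, and 1438279_at read 2.46 and 2.73 against 2.70. The probe set 1441342_at read 2.18 and 2.57 in the depleted arrays against 4.03 in wild type, with both depleted arrays below it (log2 difference -0.71, SE 0.53, limma adjusted p = 0.9999). The direction of Dpp4 thus depended on the probe set, and the mean of its 4 probe sets gave -0.06.

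Anpep, the aminopeptidase N also known as CD13, read 150 and 172 in the depleted arrays against 144 in wild type. Both depleted values lay above wild type, by 0.06 and 0.25 on the log2 scale, less than the median bright gene in the second array (mean difference 0.16, SE 0.34, 95% interval -0.52 to 0.83, limma adjusted p = 0.9997). Enpep, the aminopeptidase A that removes acidic residues, read 61.4 and 84.6 against 71.0. Wild type lay between the depleted arrays, and the mean difference was 0.02 (SE 0.38, 95% interval -0.73 to 0.77).

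The sugar transporters showed no difference that passed the test. Slc5a1 encodes SGLT1, which takes up glucose and galactose with sodium at the brush border. Its brighter probe set read 107 and 126 in the depleted arrays against 97.9 in wild type, and its other probe set 77.0 and 75.1 against 62.2. Both probe sets had both depleted arrays above wild type, with mean log2 differences of 0.24 (SE 0.36, limma adjusted p = 0.9997) and 0.29 (SE 0.38, limma adjusted p = 0.9999). Slc2a2 encodes GLUT2, through which sugars leave the enterocyte at its base. It read 28.1 and 33.5 in the depleted arrays against 30.6 in wild type, which lay between them (mean log2 difference 0.004, 95% interval -0.83 to 0.84).

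Slc2a5, the fructose carrier GLUT5, was the gene with the most spread between the depleted arrays. It read 6.93 in the first of them and 12.5 in the second, against 12.3 in wild type. The first depleted array was at 0.56 of the wild type value, and the second at 1.02, a gap of 0.83 on the log2 scale. The mean difference of -0.39 (SE 0.47, 95% interval -1.32 to 0.53, limma adjusted p = 0.9997) rested on the first depleted array. The plot of levels by array shows the narrow depleted pair of Alpi and the wide one of Slc2a5.

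**Figure D1:**
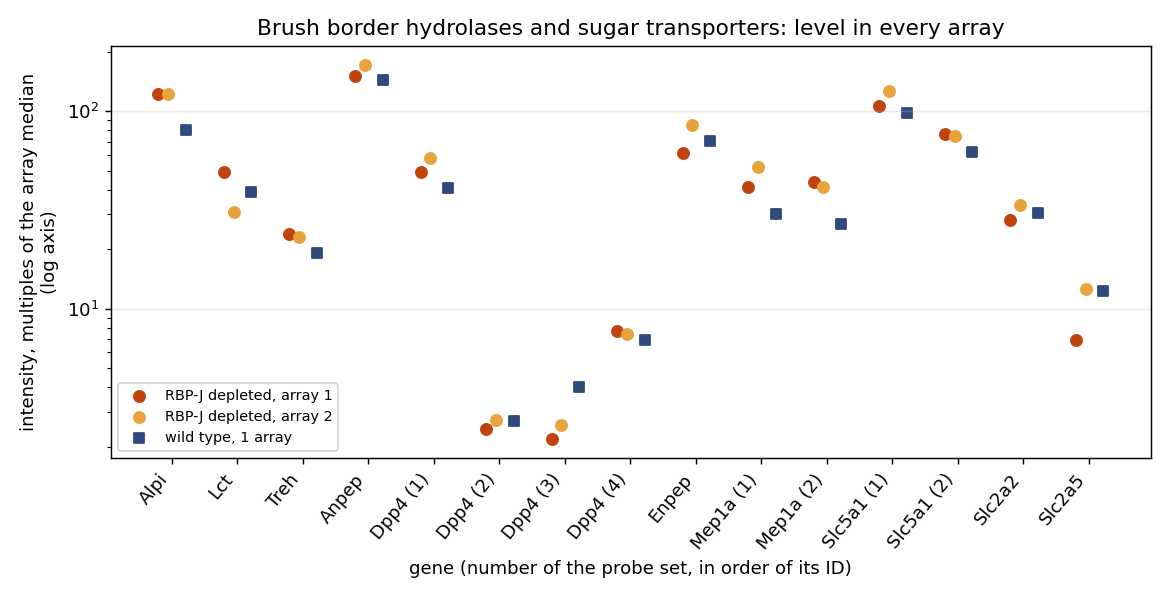
Intensity of each of the 15 probe sets in the 2 RBP-J depleted arrays (circles) and the wild type array (square), in multiples of the array median on a log axis. Each point is 1 array and there are no error bars. Both depleted arrays of Alpi, at 122, stand above wild type at 80.1, while for Lct, Enpep, Slc2a2 and Slc2a5 the wild type point lies between the depleted ones.

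Taken over the 10 genes, limma called 0, where it called 10 of the 11885 genes tested (0.0841%), and 0 of the 10 had an unadjusted p under 0.05, against 270 genes in all. The genes it called include the sex-linked Xist, Eif2s3y and Kdm5d. None of the 10 was 2-fold from wild type in either depleted array, whereas 0.841% of all genes were at least 2-fold higher and 0.488% at least 2-fold lower in both. The 6 genes Alpi, Treh, Anpep, Dpp4, Mep1a and Slc5a1 were higher in both depleted arrays, 0 were lower in both (19.5% of all genes), and for 4 the wild type value lay between. The share of all genes higher in both was 39%, and of those with a mean of at least 10 it was 47.1%, so that 6 of 10 stands near the background. The 10 genes had a median difference of 0.20 for the first depleted array and of 0.27 for the second, beside 0.03 and 0.32 for genes with a mean of at least 10. With quantile normalization the median of the mean differences changed sign to -0.06.

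**Figure D2:**
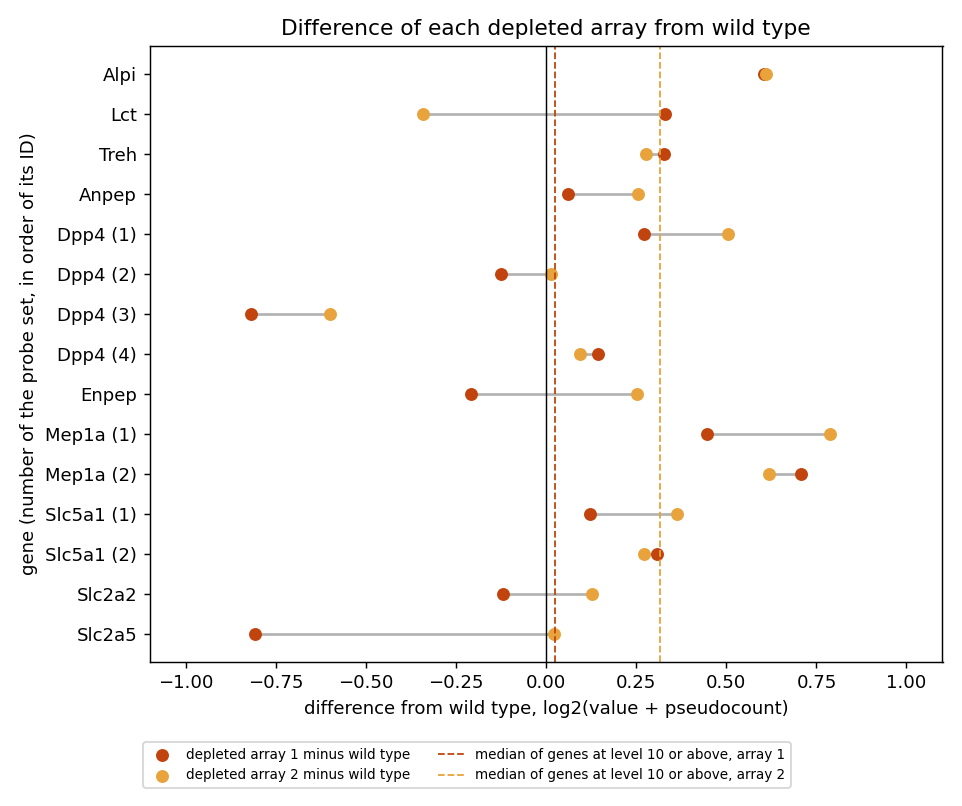
Difference of each depleted array from wild type, on the log2(value + 0.248) scale, for the 15 probe sets. Dashed lines mark the medians of genes with a mean of at least 10, 0.03 for the first depleted array and 0.32 for the second. Alpi, at 0.60 and 0.61, and both probe sets of Mep1a lie right of both lines, and 1441342_at, the probe set numbered 3 of Dpp4, lies left of 0.

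Each gene was also set against others of like level. Among the 125 genes with a mean of at least 100, the quartiles of the difference were 0.03 and 0.17 for the first depleted array and 0.26 and 0.46 for the second. Alpi, at 0.60 and 0.61, was above the upper quartile in both. Among the 1324 genes from 20 to 50, the upper quartiles were 0.22 and 0.53, and Mep1a, at 0.44 and 0.79, was above both. Slc2a5, at -0.81 and 0.02, was below the lower quartiles of its class, -0.25 and 0.04, but only narrowly in the second depleted array. Of all genes with a mean of at least 10, 8.97% were above the upper quartile of their class in both arrays and 8.44% below the lower one in both. Whether the 10 genes depart from these shares was not tested. Lct was above the upper quartile in the first depleted array but below the lower one in the second.

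When the arrays were scaled to the genes with a mean of at least 10, a setting chosen after the data were seen, Alpi, Dpp4, Mep1a and Slc5a1 were higher in both depleted arrays and Enpep, Slc2a2 and Slc2a5 lower in both. Of the genes with that mean, 26.6% were then higher and 29% lower in both. Alpi kept a log2 difference of 0.42 (SE 0.16) and Mep1a of 0.43 (SE 0.25), and Slc2a5 was at -0.57 (SE 0.41), each with a limma adjusted p = 0.9997.

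**Figure D3:**
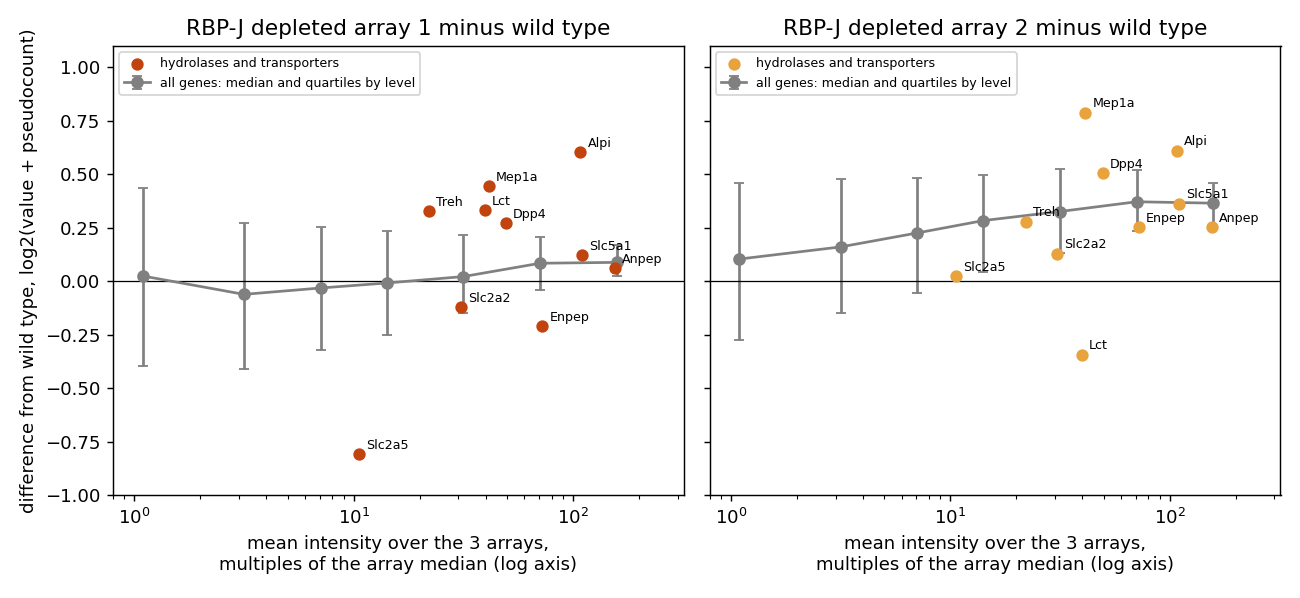
Difference from wild type, on the log2(value + 0.248) scale, against the mean intensity over the 3 arrays on a log axis, for each depleted array. Grey points with bars are the median and quartiles of all genes tested, by class of level. The grey medians of the second depleted array climb with level to 0.37, while those of the first stay between -0.06 and 0.09, and Alpi and Mep1a stand above the grey bars in both panels.

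Akp3 stood out among other brush border hydrolases. It encodes the other intestinal alkaline phosphatase of the mouse, next to Alpi on chromosome 1, and read 21.2 and 22.5 in the depleted arrays against 7.55 in wild type. The depleted arrays were 2.81 and 2.97 times wild type and 0.08 apart on the log2 scale. The log2 difference of 1.50 (SE 0.46, limma adjusted p = 0.522) did not pass the test, and over the alternatives that kept both depleted arrays it lay between 1.09 and 1.50 with adjusted p from 0.450 to 0.9999. The depleted arrays taken singly gave 1.46 and 1.54, with no test. The transcripts of the alkaline phosphatase genes are similar in sequence, so the single probe sets of Alpi and Akp3 may pick up signal from each other's transcripts, which was not tested.

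Of 16 other hydrolases tested, 12 were higher in both depleted arrays, 0 were lower in both and 0 were called. The share higher in both was 39% over all genes and 47.1% over those with a mean of at least 10. These hydrolases had a median mean difference of 0.31, beside 0.11 over all genes and 0.17 over the genes with a mean of at least 10. That median was 0.079 under quantile normalization, 0.24 when the arrays shared their 75th percentile and 0.13 when they were scaled to bright genes. Nt5e, which makes adenosine, read 4.21 and 4.90 in the depleted arrays against 2.41. A second probe set of Nt5e had the same direction, and a dim one read 0.331 and 1.43 against 0.929. Pla2g12b, a secreted phospholipase-like protein, read 32.4 and 36.8 against 22.4, and Vnn1, a pantetheinase, 54.7 and 56.9 against 40.3. The disaccharidase Mgam read 127 and 144 against 131, with wild type between. Tmprss15, the enteropeptidase that activates trypsinogen, read 4.89 and 0.096 in the depleted arrays against 0.146 in wild type, so that the first alone was high.

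Of 15 other sugar transporters tested, 10 were higher and 2 lower in both depleted arrays, and 0 were called. Over all genes tested, 39% were higher and 19.5% lower in both. Slc5a4a and Slc5a4b, relatives of Slc5a1, read 3.91 and 2.85 against 1.81 and 3.84 and 2.75 against 1.59, and being close copies they may share signal. Slc2a1, the widely expressed glucose carrier GLUT1, read 22.3 and 24.1 against 17.1, while another probe set of it, at 16 and 23.7 against 17.1, had the first depleted array below wild type. Slc2a9, a urate carrier, read 8.45 and 15.1 in the depleted arrays against 17.1 in wild type. It was thus lower in both, and more so in the first, the array in which Slc2a5 was low too. A dim probe set of Slc2a9 read 1.09 and 1.62 against 1.20.

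The enzymes that use fructose stayed near wild type in the first depleted array, where Slc2a5 was low. Khk, the fructokinase, read 21.3 and 34.3 against 22.6, and Tkfc, which acts further down the same route, 36.7 and 40.5 against 33.4. Mlxipl, the sugar-responsive factor ChREBP, was lower in both depleted arrays, at 13.4 and 18.0 against 19.8 (log2 difference -0.34, SE 0.45, limma adjusted p = 0.9997). Of the 6 genes of this list 3 were higher in both and 0 called. Glucose handling enzymes, 11 tested with 4 higher in both, had medians of -0.08 and 0.28, and 0 were called. Over all genes tested, 39% were higher in both. Pklr, a pyruvate kinase, read 62.3 and 62.2 against 52.7 in its brightest probe set, but 23.0 and 32.7 against 29.8 and 34.8 and 36.7 against 36.1 in the others. Hk1, a hexokinase, read 2.95 and 3.24 against 1.72 in its brighter probe set and 1.81 and 1.84 against 2.38 in the other, so that its direction depended on the probe set.

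Partners of sugar uptake and genes of the microvillus frame gave no call. Of 9 partners, 7 were higher in both depleted arrays, with medians of 0.18 and 0.34 and the sodium pump subunit Atp1b1 at 123 and 142 against 116. The sodium-proton exchanger Slc9a3 was lower in both, at 11.2 and 9.62 against 14.6. A dimmer probe set of Slc9a3 was also lower in both, at 1.74 and 1.26 against 3.95. Of 20 microvillus genes, 13 were higher in both and 0 lower, with medians of 0.18 and 0.37, and 0 were called. Vil1, the actin bundler villin whose promoter drives the Cre, read 85.3 and 78.6 against 70.7. Mall, Cobl, an actin nucleator, and Stx3, of apical membrane traffic, had mean log2 differences of 0.69, 0.68 and 0.55, while a dimmer probe set of Cobl gave -0.07 and one of Stx3 -0.01. Under quantile normalization the median of the mean differences was -0.01 for the microvillus genes and 0.02 for the partners.

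**Figure D4:**
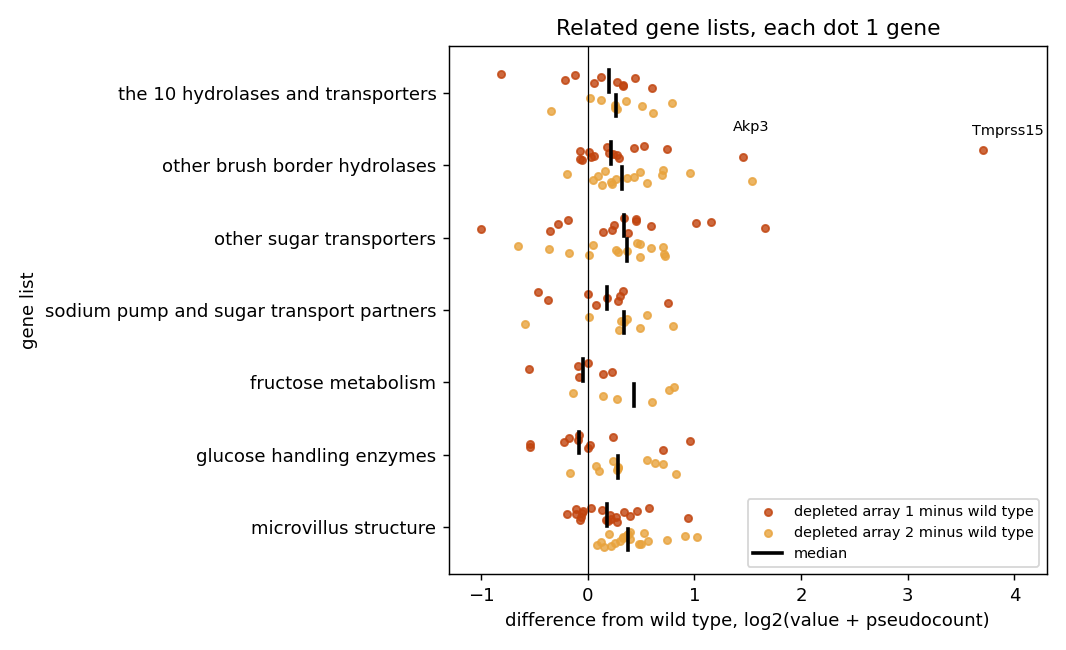
Difference of each depleted array from wild type, on the log2(value + 0.248) scale, for the 10 genes and 6 related lists. Each dot is 1 gene in 1 depleted array, and black bars are medians. Akp3 lies near 1.5 in both arrays, and Tmprss15 at 3.71 in the first depleted array only.

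None of the transcription factors known to act on enterocyte promoters was called. Cdx2 read 41.4 and 45.2 in the depleted arrays against 48.7 in wild type, Hnf4a 76.4 and 89.1 against 80.8, and Gata4, a factor of the proximal small intestine that acts on Lct, 23.0 and 18.8 against 22.7. Dimmer probe sets did not all keep these orders: another of Gata4 read 5.18 and 6.93 against 5.35, and another of Cdx2 5.73 and 12.1 against 9.34. Of the other Hnf4a probe sets, 1421983_s_at read 23.6 and 58.0 against 41.3. Hnf4g read 37.8 and 59.2 against 33.4, and Klf4 32.9 and 34.9 against 24.5. Another probe set of Hnf4g, at 18.9 and 38.9 against 21.6, had the first depleted array below wild type, and a further one read 19.6 and 17.7 against 15.5. Larger differences shared by both depleted arrays were in dimmer genes. Foxa2 read 1.82 and 1.30 against 0.609, Pdx1 2.99 and 2.13 against 1.135, and Foxa3 8.16 and 6.57 against 3.82. Of 21 such regulators 15 were higher in both, 3 lower in both and 0 called. Over all genes tested, 39% were higher and 19.5% lower in both, and of those with a mean of at least 10, 47.1% were higher.

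Many genes that mark position along the intestine read above wild type, and their part in these results was not tested. Of 11 distal genes 9 were higher in both depleted arrays, with medians of 0.41 and 0.48, and of 10 proximal genes 7, with medians of 0.21 and 0.50. Among all genes with a mean of at least 10, 47.1% were higher in both, and the medians were 0.03 and 0.32. The distal genes Slc51b, at 50.3 and 95.3 against 60.5, and Cubn, at 34.8 and 23.3 against 26.2, had wild type between the depleted arrays. Fabp6, the brightest distal gene, read 205 and 240 against 192. Fgf15, an ileal hormone induced by bile acids, read 25.9 and 17.6 against 7.65 (log2 difference 1.45, SE 0.46, limma adjusted p = 0.644), and Slc10a2, the ileal bile acid carrier, 23.9 and 36.8 against 16.8. Neither was called.

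The identity of the tissue was checked with cell markers. All 8 tested markers of absorptive enterocytes were bright and higher in both depleted arrays, with summed levels of 968 and 1178 against 853 in wild type. Of all genes with a mean of at least 10, 47.1% were higher in both. The median mean difference of these markers was 0.31, but 0.064 under quantile normalization and 0.13 when the arrays were scaled to bright genes. M cell markers summed to 413 and 533 against 368, with 6 of 9 higher in both and 1 lower in both. Bright markers weigh most in such a sum. The M cell markers not higher in both were Gp2, at 9.9 and 32.6 against 19.8, Spib, at 33.8 and 67.6 against 38.9, and Sox8. Sox8 was lower in both, at 5.62 and 9.53 against 9.67. In bulk tissue, fewer cells of a type and less RNA per cell cannot be told apart. Goblet cell markers summed to 932 and 777 against 585, with 7 of 8 higher in both. Paneth cell markers summed to 444 and 324 against 270, with 4 of 4 higher in both, and enteroendocrine markers to 178 and 119 against 116, with 4 of 7 higher in both. B cell markers summed to 16.8 and 38.3 against 38.1, with 3 of 7 lower in both. The first depleted array, in which Slc2a5 was low, thus had the lowest B cell sum and the highest goblet, Paneth and enteroendocrine sums. It also had the highest ratio of 3' to 5' signal of the Gapdh control, 2.28 against 1.54 in the second depleted array and 1.83 in wild type. Their part in the values above was not tested.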

How the data were processed

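The deposited intensity values, 1 per probe set and array, were made by the authors with MAS5, per the submitters' processing notes, from biotin-labelled cRNA. Each deposited array has a median of exactly 1, and intensities are multiples of that median. Detection calls and scanner files were not part of this work. No depth applies to arrays, and their number limits the precision. Names come from the platform annotation, where 34945 had 1 symbol, 932 several and 9160 of those that are not controls none. The brightest probe set stood for a gene, and the 11885 genes with a mean of at least 0.598, the 40th percentile, were tested. All 15 probe sets of the 10 genes passed this filter. Values were taken as log2(value + 0.248), the 25th percentile, with no further scaling, and limma 3.58.1 under R 4.3.3 compared the genotypes (lmFit, eBayes with an intensity trend), adjusted by Benjamini-Hochberg and called under 0.05. The fit has 1 residual and 600 prior degrees of freedom, so each spread is mostly pooled over genes. The fit was also run on simulated arrays, all given a spread taken from the gap between the depleted arrays. That run cannot show whether the wild type array varies as they do. Each dimmer probe set was fitted with every probe set as a row. Genes of each list were named by the largest smaller difference where the depleted arrays shared a direction, by the highest levels, or, for regulators, fructose and regional genes, from the whole list; Tmprss15 and Vil1 were chosen after their values were seen. The 10 genes and all lists were chosen with earlier results of these data known. Alternatives were other pseudocounts, filters, scalings, probe set rules and eBayes without trend. Python 3.11.15 with pandas 2.3.3 and matplotlib 3.10.9 made tables and figures.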

Additional observations from a re-analysis of the deposited data

How the results depend on the processing

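Under every alternative tried, 0 of the 10 genes were called. In each alternative where it was counted, 0 were 2-fold away from wild type in both depleted arrays. The limma adjusted p was at least 0.9997 in the 7 settings that gave a value for each of the 10 genes. No paired analysis was possible because there is 1 wild type array. The count of all genes called was 10, against 1 without a filter, 6 when filtered at the 60th percentile, 3 after quantile normalization, 4 when the arrays shared their 75th percentile and 4 scaled to genes with a mean of at least 10, a setting chosen after the data were seen. Of the 10 genes, 6 were higher and 0 lower in both depleted arrays. With quantile normalization these were 3 and 4. With the same 75th percentile 2 were lower in both, and scaled to bright genes 3 were. Directions turned in 12 of 75 values. With quantile normalization the log2 difference was -0.11 for Anpep, -0.23 for Enpep, -0.013 for Slc5a1 and -0.17 for Slc2a2. With the same 75th percentile it was -0.049 for Enpep and -0.067 for Slc2a2, and scaled to bright genes -0.025 for Anpep, -0.16 for Enpep and -0.18 for Slc2a2. These scalings lower the second depleted array. The mean of all probe sets gave -0.064 for Dpp4, and its probe sets 1438279_at and 1441342_at gave -0.056 and -0.71. With 1 depleted array left out, values with no test ran from -0.34 to 0.33 for Lct, -0.21 to 0.25 for Enpep, -0.12 to 0.13 for Slc2a2 and -0.81 to 0.023 for Slc2a5. The 2 depleted arrays and 1 wild type array limit every value here.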
